A study of Mus musculus with 6 samples.

Results

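Long intergenic noncoding RNA (lincRNA) probes make up a large block of the mouse array used here to compare testes of mice with and without Gipr, the receptor for the gut hormone GIP. They were taken as all non-control probes whose name starts with A_30_P. On this array each of them is labelled with a chromosome interval and a strand, or with the name of a known noncoding RNA. Probes placed on chromosome 7 between 15 and 35 Mb, the stretch that holds the Gipr probe, were left out. That left 16177 lincRNA probes of 55681 non-control probes, after 74 of the 16251 A_30_P probes were removed. No measured value chose the members. For comparison, 26430 probes carry an accession of a RefSeq messenger RNA and are called coding below, and 886 carry one of a RefSeq noncoding RNA. The comparison sets, and the set of all probes, keep the chromosome 7 stretch.

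The samples were whole testes of 8-week-old C57BL/6 mice, 3 Gipr knockout and 3 wild type, with 1 array per sample. Testes were removed after an overdose of anaesthetic, and the labels name no treatment and say no more about the knockout allele. Cy3-labelled cRNA from total RNA was read on 1-colour arrays of 60-base probes, so a value is the brightness of a spot. All 6 arrays shared 1 slide, with the knockout samples in slide row 1 and the wild-type samples in row 2, so row and genotype cannot be told apart.

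A lincRNA is a transcript from DNA between protein-coding genes that carries no long open reading frame. Many are capped, spliced and polyadenylated like messenger RNAs, and as a class they are known for lower and more tissue-restricted levels than messenger RNAs. Testis is known for transcribing an unusually large part of the genome, much of it in germ cells during and after meiosis. Known lincRNAs act in several ways, among them holding together nuclear bodies, silencing chromosomes and guiding chromatin enzymes.

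The intervals behind the probes were mostly short and thinly sampled. The 16177 probes read 3539 intervals with a median width of 7304 bases, a median of 3 and a maximum of 20 probes per interval. A single strand was probed in 2477 intervals and both strands in 1062. In all, 8159 probes read the forward and 8018 the reverse strand. The files place 16059 of the probes on the mm9 genome, and the strand in the label matched the strand of the placement for every one of these. Whether a probe lies in an exon, an intron or a UTR of a gene model was not determined here, so the nearest coding probe on the same array is given in its place.

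Probe sequences carry 3 of the results below, and they are printed as the array files give them, 5′ to 3′, with mm9 positions. The first set is the brightest members. A_30_P01024415 (chr17:15136146-15136205, reverse strand) and A_30_P01027464 (chr17:15104550-15104609, reverse strand) share 59 of 60 bases. The substitution is C8G, counted from 1 at the 5′ end of A_30_P01024415, and is set in capitals, so their signals cannot be assigned to either interval alone.
A_30_P01024415: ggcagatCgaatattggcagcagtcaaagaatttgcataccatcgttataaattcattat
A_30_P01027464: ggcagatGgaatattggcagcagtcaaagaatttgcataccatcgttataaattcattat
The next members in brightness, A_30_P01028116 (chr17:15107351-15107410) and A_30_P01020263 (chr17:15107411-15107470), are neighbours on the reverse strand of the interval that holds A_30_P01027464. Each holds an ATTAAA hexamer, a common variant of the polyadenylation signal, in capitals.
A_30_P01028116: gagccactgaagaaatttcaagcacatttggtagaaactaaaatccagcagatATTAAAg
A_30_P01020263: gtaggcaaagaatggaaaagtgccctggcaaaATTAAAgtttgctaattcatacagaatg

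The second set shows pairs of probes on opposite strands of the same bases, of which 1 was above background on all 6 arrays and the other on none. Capitals mark the bases that the probes of a pair share as reverse complements. The pair on chromosome 14 at chr14:67588801-67588860 overlaps over all 60 bases, with A_30_P01028444 on the forward and A_30_P01024021 on the reverse strand.
A_30_P01028444: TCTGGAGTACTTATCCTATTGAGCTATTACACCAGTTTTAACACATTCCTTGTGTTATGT
A_30_P01024021: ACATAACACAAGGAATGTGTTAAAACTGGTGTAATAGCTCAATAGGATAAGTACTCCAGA
The pair at chr3:9409154-9409213 (A_30_P01026719, reverse strand) and chr3:9409156-9409215 (A_30_P01027943, forward strand) overlaps over 58 bases.
A_30_P01026719: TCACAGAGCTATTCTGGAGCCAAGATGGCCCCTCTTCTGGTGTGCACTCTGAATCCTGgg
A_30_P01027943: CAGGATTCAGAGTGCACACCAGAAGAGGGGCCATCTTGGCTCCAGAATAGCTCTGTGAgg

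The third set is, among members detected throughout at least 1 genotype, those with the largest knockout minus wild-type differences and genotypes that do not overlap, 2 higher and 2 lower in knockout. A_30_P01022454 (chr17:80144297-80144356, forward), A_30_P01030210 (chr6:121058286-121058345, reverse) and A_30_P01025563 (chr12:110749923-110749982, forward) hold neither AATAAA nor ATTAAA. A_30_P01024741 (chr13:52071893-52071952, forward) holds ATTAAA, in capitals.
A_30_P01022454: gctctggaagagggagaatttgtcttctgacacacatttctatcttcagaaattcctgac
A_30_P01030210: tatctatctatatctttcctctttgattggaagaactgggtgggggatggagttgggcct
A_30_P01024741: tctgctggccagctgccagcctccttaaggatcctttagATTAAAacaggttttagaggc
A_30_P01025563: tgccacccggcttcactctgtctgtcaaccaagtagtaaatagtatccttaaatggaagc

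Across all members the polyadenylation hexamers were rarer than in coding probes. AATAAA, read on the strand of the probe, occurred in 3.91% of lincRNA probes and 13.2% of coding probes. Its reverse complement TTTATT occurred in 3.02% and 4.27%. ATTAAA occurred in 2.48% of lincRNA and 4.49% of coding probes, and its reverse complement TTTAAT in 2.23% and 2.67%. Among lincRNA probes, AATAAA was about as frequent in those above background on all 6 arrays (4.21%) as in those above it on none (3.93%).

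Between 51.9% and 61.2% of lincRNA probes were detected per testis. Detection here means that Feature Extraction, the scanner software, marked the spot as well above background. In the knockout arrays 61.2%, 55.3% and 53.2% of lincRNA probes were detected, and in the wild-type arrays 51.9%, 55.4% and 55.5%. The genotypes overlapped, with means of 56.6% ± 4.1 (SD, n = 3) and 54.2% ± 2.1 (SD, n = 3) and an exact two-sided permutation p of 0.6, where 0.1 is the smallest that 3 against 3 can give.

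Coding probes were detected far more often on every array, between 82.1% and 85.4% of them, and probes of RefSeq noncoding RNAs fell between, at 71.6% to 76.0%. The coding share exceeded the lincRNA share by 27.9 ± 2.0 percentage points (SD, n = 6), in 6 of 6 arrays. An exact two-sided sign-flip permutation test over the 6 arrays gave p = 0.0312, the smallest it can give, and 0.0369 after Benjamini-Hochberg adjustment over 13 such tests. Repeats of these comparisons under other settings, such as a range of GC content, were not counted among the 13. These tests measure the spread between arrays, and the probes compared are the same on each. With the looser mark for a positive and significant spot, the shares were 77.1% and 91.1% and the gap 14.0 points.

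**Figure D1:**
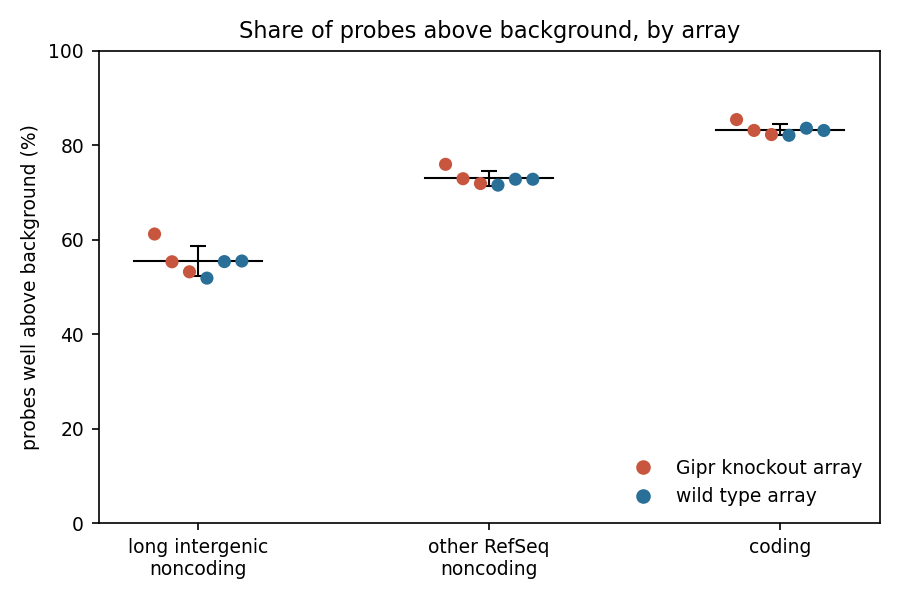
Percentage of probes well above background on each array, for lincRNA probes, other RefSeq noncoding probes and coding probes. Points are arrays, coloured by genotype, and bars are the mean ± SD over 6 arrays. The lincRNA values lie between 51.9% and 61.2% and the coding values between 82.1% and 85.4%.

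Most lincRNA probes were either always or never detected. On all 6 arrays, 7741 (47.9%) were above background, against 21168 coding probes (80.1%). On none were 5518 (34.1%), against 3334 coding probes (12.6%). A further 1178 lincRNA probes were above background on a single array, and on 566 of these that array was knockout replicate 1, which also had the highest share. All 3 knockout arrays and no wild-type array detected 44 of the 16177 members, and the reverse pattern held for 4. Those patterns had 95 and 13 of all 55681 probes of the array, and 29 and 6 of the 26430 coding probes.

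The lincRNA spots were also dimmer. Signals are given as log2 relative to the 75th percentile of each array, and brightness also depends on the probe's own sequence, so the distributions describe spots and not molecules. The median lincRNA signal was -5.59 ± 0.07 (SD, n = 6) and the median coding signal -1.33 ± 0.01 (SD, n = 6), a gap of 4.27 ± 0.07 in 6 of 6 arrays (exact sign-flip permutation p = 0.0312, adjusted 0.0369). On the scale of the scanner's processed signal the medians were 15.6 and 300.2 units.

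The gap remained among detected probes. For those above background on all 6 arrays, the median was -3.31 for lincRNA and -0.22 for coding probes, a gap of 3.09 ± 0.05 (SD, n = 6). With normexp background correction, which compresses low signals, the gap over all probes was 2.27. Only 852 lincRNA probes (5.27%) had a mean signal above the 75th percentile of the arrays, against 37.9% of coding probes, and 1650 (10.2%) were above the coding median.

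**Figure D2:**
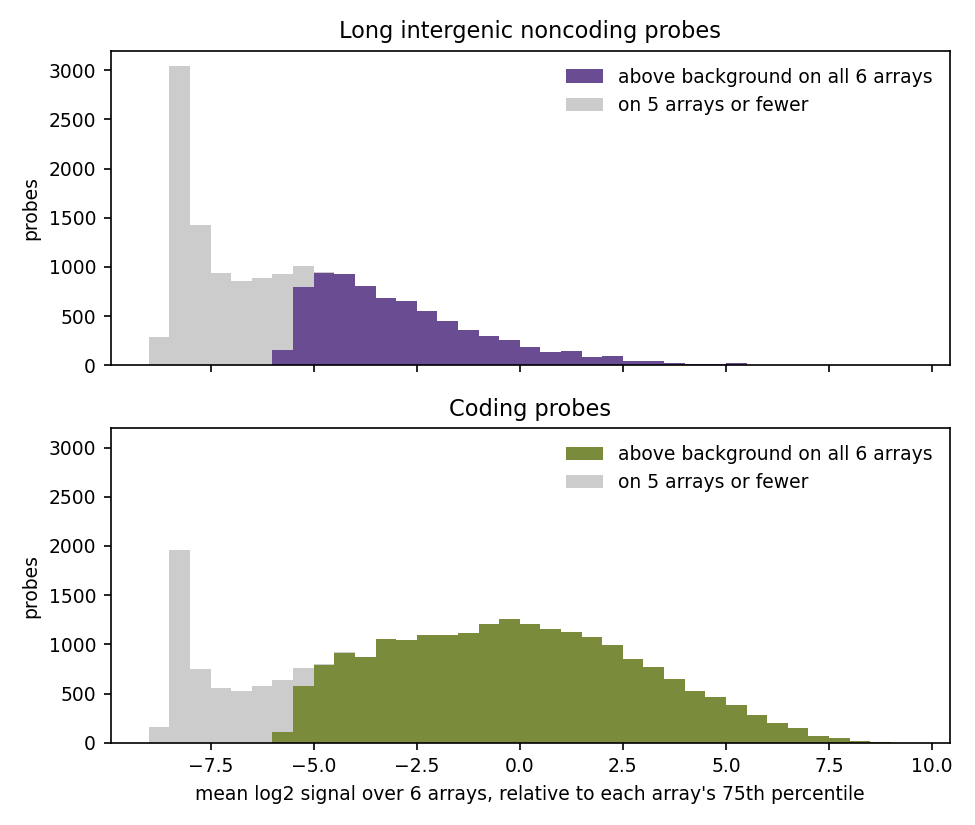
Number of probes by mean log2 signal over the 6 arrays, for lincRNA (top) and coding probes (bottom), on the same axes. Coloured bars are probes above background on all 6 arrays and grey bars the rest. The lincRNA probes have a median of -5.65 and the coding probes one of -1.33.

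Base composition differed between the sets. The median GC content was 45% for lincRNA and 41.7% for coding probes, and detection rose with GC in both. Of lincRNA probes under 35% GC, 25.3% were above background on all 6 arrays, against 68.7% of those at 55% or more. The corresponding coding values were 68.3% and 87.9%. Within 40% to 55% GC the gap in share between the sets was 28.5 points.

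The interval's width and the probe's place in it went with smaller differences in detection. Probes of intervals under 1000 bases were above background on all 6 arrays in 39.5% of cases, those of intervals of 1000 to 5000 bases in 53.5%, and those of intervals over 100000 bases in 43.1%. By distance from the 3′ end of the labelled interval, the share stayed between 45.3% and 49.4% in all 5 classes.

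Probes of the same interval and strand often disagreed. Of 3916 interval strands with 2 or more probes, 971 (24.8%) had every probe above background on all 6 arrays, 960 (24.5%) had none, and 1985 (50.7%) were mixed. The median SD of mean log2 signals within an interval strand was 1.30, against an SD of 2.82 over all members. At least 1 probe was above background on all 6 arrays in 2646 of the 3539 intervals (74.8%).

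The strands of an interval could be compared where both were probed. Of the 1062 intervals probed on both strands, 680 (64%) had at least 1 probe above background on all 6 arrays on each strand, 311 (29.3%) on 1 strand, and 71 on neither. A stricter count, with every probe of a strand required, put 74 intervals in the first class, so the count of intervals read on both strands rests on that choice. Counting probes that overlap by at least 30 bases on opposite strands, both were above background in 438 of 1725 pairs (25.4%), 1 in 786 (45.6%) and neither in 501 (29.0%).

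The opposite-strand probes printed above show how far apart such signals could lie. A_30_P01028444, on the forward strand in chr14:67585234-67596823, read 4.50, 4.73 and 4.60 in knockout and 4.61, 4.64 and 4.57 in wild type. Its full reverse complement A_30_P01024021 read between -8.63 and -7.84 and was not well above background on any array. On the linear scale these are 17850 to 19042 units against 1.99 to 3.34 units. The GC content of both is 35%.

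Outside chromosome 18, which was left out of this count, 213 such pairs overlapping by at least 50 bases had 1 strand on all 6 arrays and the other on none. The number of all pairs with that overlap was not counted. In the chr3:9401052-9415202 interval A_30_P01026719 on the reverse strand read 1.60 to 1.79, and A_30_P01027943 on the forward strand read -8.60 to -8.00. Over whole intervals, 119 of the 1062 (11.2%) had a probe on all 6 arrays on 1 strand and no detected probe on the other on any array. The brightest of these was chr2:167404245-167414345, where the reverse-strand probe A_30_P01020487 read 1.84 to 2.08 and the brighter forward-strand probe -8.45 to -7.84. The nearest coding probe to it is of Ube2v1, 28543 bases away.

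At the other end, some intervals were bright on both strands. In chr12:73838608-73862621 the forward probe A_30_P01020570 read 6.06 to 6.29 and the reverse probe A_30_P01031264 read 6.34 to 6.49. All 5 reverse and 3 of 5 forward probes of that interval were above background on all 6 arrays. In chr12:110003268-110030953 the forward probe A_30_P01029815 read 2.30 to 2.46 and the reverse probe A_30_P01022958 read 2.77 to 2.88. The nearest coding probe there is of Yy1, a zinc-finger transcription factor, 24026 bases away and on the forward strand. In chr6:145647711-145756861 the forward probe A_30_P01022273 read 1.80 to 2.11 and the reverse probe A_30_P01032891 read 2.18 to 2.58.

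The remaining pair of bright strands lies at a ribosomal RNA locus. The interval chr17:39960567-39992817 holds the array's own probe for Rn18s, the 18S ribosomal RNA, at chr17:39985058-39985117. Within 10 kb of that probe lie 20 lincRNA probes of 5 intervals, 10 on each strand, and all 20 were above background on all 6 arrays. Their mean signals ran from 0.57 to 6.93, and even the lowest of them was brighter than 96.0% of members. Knockout minus wild-type differences there were between 0.11 and 0.35, and the lowest unadjusted limma p was 0.0052. These probes were singled out after their values were seen.

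Over all members, reverse-strand probes were detected more often than forward-strand probes. The shares were 57.8% ± 3.4 and 53.0% ± 3.0 (SD, n = 6), and the forward share was lower by 4.82 ± 0.44 points in 6 of 6 arrays (exact sign-flip permutation p = 0.0312, adjusted 0.0369). Both sets had a median GC content of 45%, and within 40% to 55% GC the forward minus reverse difference was -5.04 points.

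Detection near coding genes differed by orientation. Of members within 1 kb of the nearest coding probe, those on its strand were above background in 85.4% ± 1.8 (SD, n = 6 arrays, 233 probes) and those on the opposite strand in 53.1% ± 5.2 (288 probes). The difference was 32.3 ± 3.6 points in 6 of 6 arrays (exact sign-flip permutation p = 0.0312, adjusted 0.0369). At 1 to 5 kb it was 18.1 ± 1.3 points, with 68.1% against 50%, and at 5 to 20 kb 1.45 ± 0.53 points.

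Farther out the difference was smaller. From 20 to 100 kb the same-strand share was 55.1% and the opposite-strand share 55.4%, a difference of -0.31 ± 0.40 points (exact sign-flip permutation p = 0.125, adjusted 0.135). Beyond 100 kb they were 51.6% and 48.6%, and the difference of 2.98 ± 0.63 points was positive on 6 of 6 arrays (exact sign-flip permutation p = 0.0312, adjusted 0.0369). Leaving out intervals that hold a coding probe, the difference within 1 kb was 36.7 points, over 54 and 140 probes, within 40% to 55% GC it was 25.9 points, and with the looser detection mark it was 15.6 points, with 94.1% against 78.5%.

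**Figure D3:**
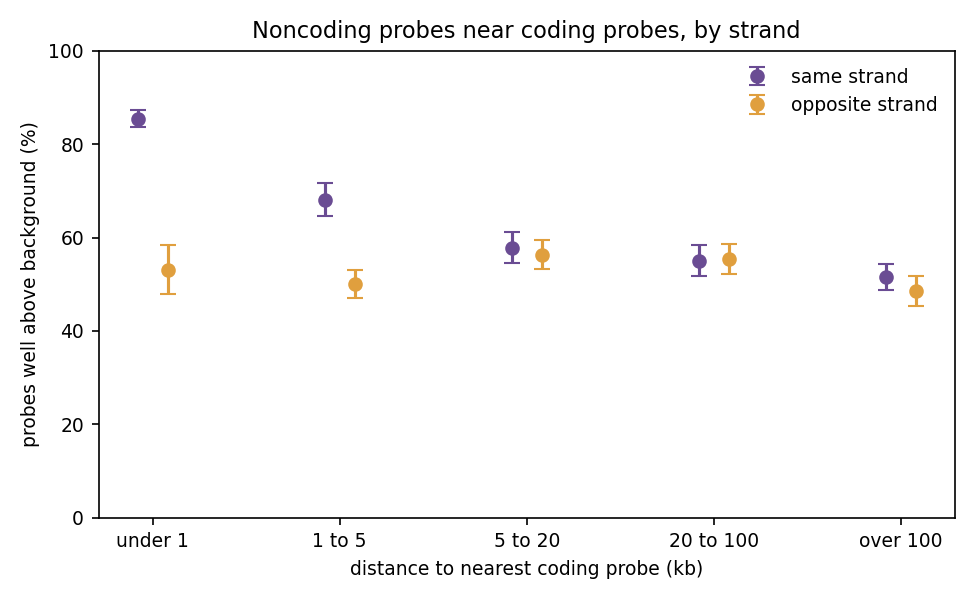
Percentage of lincRNA probes above background by distance to the nearest coding probe of the array, for probes on its strand and on the opposite strand. Points are means over 6 arrays and bars the SD. The strands differ by 32.3 points under 1 kb and by -0.31 points at 20 to 100 kb.

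The neighbour's own signal went with detection on the same strand. Of same-strand members within 20 kb of a coding probe that was above background on all 6 arrays, 57.5% were themselves above it on all 6, over 2696 probes. Where the coding probe was above background on none, the value was 25.6%, over 129 probes. On the opposite strand the values were 46.3% over 2717 probes and 46.4% over 151 probes.

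Some of the labelled intervals overlap measured messenger RNAs. A coding probe lies inside 156 of the 3539 intervals, on the labelled strand in 123. The 939 members of those intervals were above background on all 6 arrays in 57.8% of cases, against 47.2% of the other 15238. A stretch of 30 bases was shared with a coding probe by 38 members, of which 94.7% were above background on all 6 arrays, and with another member by 826, of which 66.8% were.

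Of the 6 brightest members, 3 lie in such intervals. A_30_P01024415, in chr17:15132576-15147002, read 7.94, 8.02 and 7.88 in knockout and 7.96, 7.94 and 7.91 in wild type. Its interval holds a coding probe. The nearest, of the predicted gene Gm3448 and with a mean signal of 8.90, lies 3284 bases away on the same strand. A_30_P01027464, which differs from A_30_P01024415 in the base printed above, lies in chr17:15100982-15115630, which holds no coding probe, and read 7.54 to 7.65. A_30_P01028116 and A_30_P01020263 in that interval read 7.27 to 7.39 and 7.19 to 7.27.

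Next in brightness were the adjoining probes A_30_P01030718 (chr14:20896411-20896470) and A_30_P01033105 (chr14:20896351-20896410), both in chr14:20893694-20903726 on the reverse strand, an interval that holds a coding probe. They read 6.90 to 7.14 and 6.83 to 7.14. The nearest coding probe, of 1810063B07Rik and with a mean signal of -4.53, lies 1458 and 1398 bases away on the same strand. None of these 6 members passed the limma test between genotypes, with differences between -0.15 and 0.01 and adjusted p-values from 0.694 upwards.

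A few intervals were detected almost throughout. In chr7:99879368-99889978, 18 of 20 probes were above background on all 6 arrays, 10 of 10 on the reverse and 8 of 10 on the forward strand. Mean signals of all 20 probes, detected or not, ran from -6.60 to -1.93. The strand medians given below likewise cover every probe of the strand. The most frequent nearest coding gene there is Pcf11, a factor of messenger RNA 3′ end cleavage. In chr8:72663625-72673010 it was 17 of 18 probes, and the forward strand was the brighter, with a median of 0.90 against -3.63.

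In chr10:120116843-120182671, near Msrb3, 17 of 19 probes were above background throughout, with a median of -4.11 on the forward and -3.48 on the reverse strand. In chr11:95627874-95640824, near Zfp652, it was 16 of 19 probes, and the medians were -1.90 and -2.49. Of the probes tested in each of these 4 intervals, 2 of 19, 0 of 17, 4 of 17 and 1 of 17 had an unadjusted limma p under 0.05 for genotype.

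Detection also varied by chromosome. The share above background on all 6 arrays was highest on chromosomes 5 (58.3% of 962 probes), 17 (56.4% of 896) and 19 (55.8% of 328). It was lowest on the X chromosome, at 40.7% of 587 probes, followed by chromosome 9 at 42.3% of 736. Coding probes ranged from 74.1% on chromosome 7 to 86.8% on chromosome 12 and stood at 79.2% on X. No member was placed on the Y chromosome.

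The low value on X shrank when probes of like composition were compared. Averaged over arrays, 47.2% of X and 55.7% of autosomal lincRNA probes were detected, a difference of -8.49 ± 0.88 points (SD, n = 6) in 6 of 6 arrays (exact sign-flip permutation p = 0.0312, adjusted 0.0369). For coding probes it was 0.01 ± 0.72 points (p = 1.0 by the same exact test). X members had a median GC content of 41.7% against 45% on autosomes. Within 40% to 55% GC, which keeps 356 X members, the difference was -3.82 ± 0.82 points for lincRNA and -1.88 ± 0.74 points for coding probes. The lincRNA minus coding value then moved from -8.49 to -1.93 ± 0.98 points, still negative on 6 of 6 arrays.

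**Figure D4:**
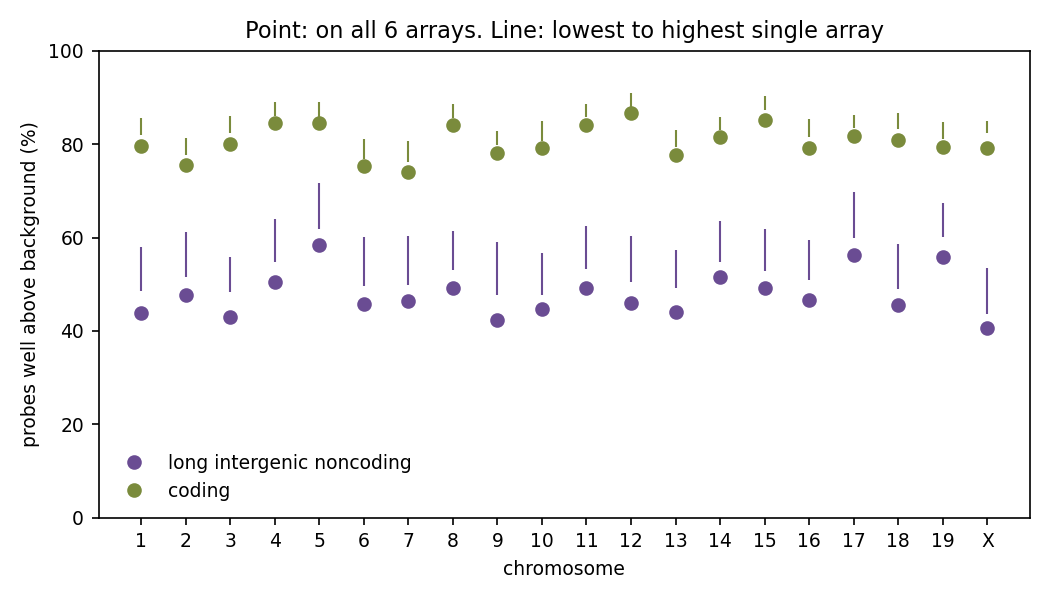
Percentage of lincRNA and coding probes above background by chromosome. Points are the share on all 6 arrays and lines run from the lowest to the highest single array. The X chromosome has the lowest lincRNA point, 40.7%, and chromosome 5 the highest, 58.3%.

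Members that carry the name of a known noncoding RNA cover 12 RNAs with 57 probes, of which 32 were above background on all 6 arrays and 18 on none. RefSeq's gene table held 10 of the 12 names as a symbol or synonym, all but BRN1-A and lincP21. NEAT1, which builds the nuclear bodies called paraspeckles, was bright in all 5 probes. The probe A_30_P01025798 read 2.03, 1.69 and 1.77 in knockout and 1.42, 1.58 and 1.79 in wild type. The genotypes overlapped, and its difference of 0.23 ± 0.13 (SE) had an adjusted limma p of 0.678.

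NEAT2, the older name of Malat1, a nuclear-speckle RNA, read 0.28 to 0.87 over its 3 probes and 6 arrays. TUG1, named as a taurine upregulated gene, had all 5 probes above background, with means from -0.81 to 1.01. The 4 probes of BRN1-A had means from -2.55 to -0.66. KCNQ1ot1, the antisense RNA that silences an imprinted cluster on the paternal chromosome, was detected by all 5 probes with means from -4.21 to -1.57.

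For other named RNAs the probes disagreed among themselves. HOTAIR, transcribed from the HoxC cluster, had 1 probe above background on all 6 arrays, A_30_P01022414 at -4.46 to -3.31, and 4 on none. NRON had 2 on all 6 arrays and 3 on none. PINC had 1 of 5 on all 6 arrays. XIST, which coats the inactive X chromosome of females, had 2 of 5 on all 6 arrays, with means of its 5 probes from -7.63 to -5.26. The 2 tested XIST probes differed by 0.18 and 0.42, with a lowest limma p of 0.0071 unadjusted and 0.558 adjusted. Another Xist probe of the array, A_52_P300376, was above background on 1 array. TSIX, the antisense partner of XIST, had 5 of 5 on none. Another Tsix probe of the array, A_55_P2153116, was above background on 4 arrays at -6.68 to -5.51 over all 6. Of the 5 probes of lincP21, which p53 induces, 4 were on none.

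H19, an imprinted RNA of fetal growth, gave the lowest p among the named RNAs in 1 of its 5 probes. A_30_P01026972 (chr7:149762173-149762232) read -5.14, -5.13 and -5.04 in knockout and -5.68, -5.54 and -5.65 in wild type. The genotypes did not overlap, with a limma difference of 0.52 ± 0.07 (SE) and an adjusted p of 0.178, so it did not pass. The other 3 tested H19 probes had differences from -0.19 to 0.00.

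Turning to the genotypes, the targeted gene showed the labelled contrast. The Gipr probe read -2.35, -2.31 and -2.12 in knockout and 0.08, 0.15 and 0.44 in wild type, a limma difference of -2.48 ± 0.12 (SE, adjusted p = 0.00309). Markers of testis cells were detected. All 8 germ cell markers listed, among them the protamines Prm1 and Prm2, were above background on all 6 arrays, as were all 5 Sertoli and the 3 measured Leydig markers. Markers listed for other tissues were detected in part. Of 4 epididymal genes, Defb21 and Rnase10 were above background on all 6 arrays and Lcn5 and Crisp1 on none. The blood genes Hba-a1 and Alas2 and the adipose genes Adipoq, Plin1 and Fabp4 were above background on all 6. Fabp4, a fatty acid binding protein of fat cells, was bright on 2 arrays, at 1.82 (knockout replicate 1) and 1.12 (wild-type replicate 2), and read -5.23 to -3.62 on the other 4. The summed adipose signal was 2199 to 5601 units in knockout and 2415 to 4798 in wild type, and the summed blood signal 4318 to 8630 and 3895 to 6009. The summed signal of Cyp17a1, Star and Hsd3b6, steroidogenic genes of Leydig cells, was 7728 to 14332 units in knockout and 14151 to 17957 in wild type. None of the 3 passed the limma test. The part of these cell types in the results that follow was not tested.

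No lincRNA probe passed the test between genotypes. Of the members, 8459 were well above background throughout at least 1 genotype and entered the limma fit over all 38871 such probes. At an adjusted p under 0.05, 0 members were higher and 0 lower in knockout, where 0.00515% of all tested probes were called higher and 0.0412% lower. The calls over all tested probes include Gipr, which lies in the chromosome 7 stretch left out of the members. The lowest adjusted p among members was 0.0611. At an unadjusted limma p under 0.05 there were 772, or 9.13%, where 7.66% of all tested probes passed. Under other settings of the same tool, between 0 and 6 members and between 5 and 35 of all tested probes were called.

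Small differences leaned upwards in knockout. At an unadjusted limma p under 0.05, 534 members (6.31%) were higher and 238 (2.81%) lower, where 4.39% and 3.28% of all tested probes were. Coding probes had 737 higher and 666 lower, or 6.47% of those tested in either direction. The median difference was 0.02 for members and 0.01 for coding and for all tested probes, and without the filter on dim probes it was -0.017 for members. In bulk tissue, fewer cells of a type and less RNA per cell cannot be told apart in such differences.

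That lean moved with single arrays, and its size differed between the classes of signal given below. The median deviation of tested members from their own means was 0.05, 0.02 and -0.02 in the knockout and -0.03, -0.03 and 0.03 in the wild-type arrays, so the genotypes overlapped. For coding probes it stayed between -0.01 and 0.01. Without knockout replicate 1 the counts were 369 higher and 271 lower, without replicate 2 704 and 444, and without replicate 3 576 and 176. Over all tested probes these runs had 1040 and 980, 2434 and 3007, and 1592 and 770. Without wild-type replicates 1, 2 and 3 in turn, members had 403 and 338, 371 and 211, and 981 and 234. Over all tested probes those runs had 1263 and 1130, 1098 and 934, and 2457 and 1461. With normexp background correction members had 328 and 267, and all tested probes 1397 and 1918.

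Counts are given by signal class, with no test between classes. Under -6, 23 of 95 tested members were higher and 10 lower, with a median difference of 0.37, and 13 and 6 of 50 coding probes, with the same median. No lincRNA or coding probe under -6 was above background on all 6 arrays. Each entered the fit only through the genotype in which it was detected throughout, so the filter shapes these differences and counts. The class from -6 to -5 also holds such probes, so neither class can tell how the lean depends on signal. Among the 1565 tested members with a mean signal of -6 to -5, 130 were higher and 54 lower, and the median difference was 0.05. Among the 852 with a mean signal above 0, 22 were higher and 20 lower, and the median was -0.01. In these last classes coding probes had 87 and 63 of 1142, and 167 and 223 of 10020. The 3 classes between -5 and 0 had 147 and 68, 168 and 61, and 44 and 25 members higher and lower, in order of rising signal.

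Counts of separated groups were close to those of the whole array. The 3 knockout values lay above all 3 wild-type values in 676 tested members (7.99%) and below them in 379 (4.48%), where 7.84% and 5.54% of all tested probes did. A difference of at least 1 was seen in 20 members upwards (0.236%) and 13 downwards (0.154%), against 0.141% and 0.198% of all tested probes. By chromosome, the share of tested members with an unadjusted limma p under 0.05 ran from 4.31% on X to 13.0% on chromosome 17, where 49 were higher and 22 lower of 546. Over all tested probes of the array the share was 7.66%, and it was not computed by chromosome for other probes. Those 546 include the 20 members near Rn18s, read at a single locus, whose differences were all upward, at 0.11 to 0.35.

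Among tested members, the largest separated difference was at A_30_P01022454, in chr17:80133213-80144417 on the forward strand. It read -3.82, -4.67 and -3.05 in knockout and -7.93, -8.17 and -6.99 in wild type. The knockout samples were all above background and none of the wild-type samples was. The fold of the measured means is therefore a bound, at least 4.94-fold higher in knockout. Such bounds carry no sampling error and hold for the main background correction only. The limma difference was 3.85 ± 0.47 (SE) with an adjusted p of 0.160, and it was 0.82 with normexp correction. The adjusted p ran from 0.0145 to 0.473 over the alternatives and was under 0.05 in 3 of 15.

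Neighbouring probes showed smaller differences. The other tested probe of the interval, on the same strand, had a difference of 0.59 and an unadjusted limma p above 0.05. The nearest coding probe, of Cyp1b1, a cytochrome P450, lies 37691 bases away on the opposite strand and differed by 0.04 with an adjusted p of 0.901.

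A_30_P01030210, in chr6:121035524-121061074 on the reverse strand, read -5.02, -2.98 and -3.54 in knockout and -6.81, -5.95 and -6.36 in wild type. Of the wild-type samples 1 was above background, so the other 2 carry only an upper limit. The limma difference of the measured values was 2.53 ± 0.52 (SE, adjusted p = 0.471). The 3 other tested probes of the interval had differences from 0.10 to 0.28.

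The other 4 of the 6 largest upward members differed by 1.23 to 1.53. They were A_30_P01029232 (chr8:54656692-54657238), A_30_P01031647 (chr17:6514179-6517720), A_30_P01029032 (chr13:112717680-112733330) and A_30_P01024483 (chr17:13020750-13033750), and their adjusted limma p-values were 0.609 to 0.639. A_30_P01029232 was above background in 1 wild-type sample. A_30_P01029032 was not above background in any wild-type sample, and its measured mean was at least 1.30-fold higher in knockout. With normexp correction its difference was 0.10. Of these, A_30_P01031647 had a single other tested probe in its interval, higher by 0.31 at an unadjusted limma p under 0.05. A_30_P01024483 also had a single other tested probe, with a difference of -0.65. For A_30_P01029032, 3 of 9 other tested probes were higher and 6 lower, and for A_30_P01029232 no other probe was tested.

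Downwards, the largest separated difference among tested members was at A_30_P01024741, in chr13:52068582-52071952 on the forward strand. It read -5.56, -5.43 and -5.55 in knockout and -5.25, -3.98 and -2.83 in wild type, so the wild-type samples carried most of the spread. The limma difference was -1.49 ± 0.56 (SE, adjusted p = 0.639). The 2 other tested probes of its interval differed by -0.50 and 0.15. The nearest coding gene on the array is Gadd45g, 128101 bases away.

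A_30_P01025563 lies in chr12:110738120-110769295, with Dlk1, an imprinted growth regulator, as the nearest coding probe at 51142 bases. It read -5.76, -5.44 and -5.73 in knockout and -2.91, -4.34 and -5.27 in wild type. The limma difference was -1.47 ± 0.55 (SE, adjusted p = 0.639), and 0 of the 4 other same-strand probes of the interval was tested. A_30_P01024337 (chr1:196445304-196445818) and A_30_P01021393 (chr16:23992037-24001037) differed by -1.42 and -1.32, with adjusted limma p-values of 0.428 and 0.642. The former was above background in 1 knockout sample, and the single other tested probe of its interval differed by 0.45. For A_30_P01021393, 6 of 9 other tested probes were higher and 3 lower.

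The last of the downward members were tighter. A_30_P01021492, in chr3:90425270-90435820 on the reverse strand, read -6.96, -6.90 and -6.56 in knockout and -5.65, -5.72 and -5.59 in wild type. No knockout sample was above background, so its measured mean was at least 1.61-fold lower in knockout. The limma difference was -1.16 ± 0.12 (SE, adjusted p = 0.0770), and it was -0.17 with normexp correction. The measured mean of A_30_P01021643 (chr11:116936834-116948799) was at least 1.82-fold lower. Its limma difference was -1.12 ± 0.21 (SE, adjusted p = 0.413), and it was -0.22 with normexp correction. The 4 other tested probes of its interval differed by -0.167 to -0.004. In the interval of A_30_P01021492, 2 of 5 other tested probes were higher and 3 lower.

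The members of lowest p, singled out after their values were seen, had smaller differences and very little spread. A_30_P01029522 (chr14:101900263-101900322, forward) read -2.42, -2.37 and -2.42 in knockout and -1.78, -1.62 and -1.75 in wild type. All 6 arrays were above background, with a limma difference of -0.69 ± 0.07 (SE, adjusted p = 0.0611). Over 17 alternatives its adjusted p ran from 0.0158 to 0.428 and was under 0.05 in 4. The 3 other tested probes of its 171276-base interval, which holds a coding probe, were all on the same strand and differed by -0.01 to 0.22.

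A_30_P01018878 (chr8:72105151-72105210, forward) read -5.41, -5.61 and -5.46 in knockout and -6.45, -6.28 and -6.30 in wild type. No wild-type sample was above background, so its measured mean was at least 1.57-fold higher in knockout. The limma difference was 0.85 ± 0.08 (SE, adjusted p = 0.0611), and it was 0.15 with normexp correction. A_30_P01024957 and A_30_P01017933 were higher by 0.56 and 0.51, with adjusted p-values of 0.110 and 0.142. With normexp correction, the 16 differences named here kept their sign and were 7.83% to 68.3% of their size.

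**Figure D5:**
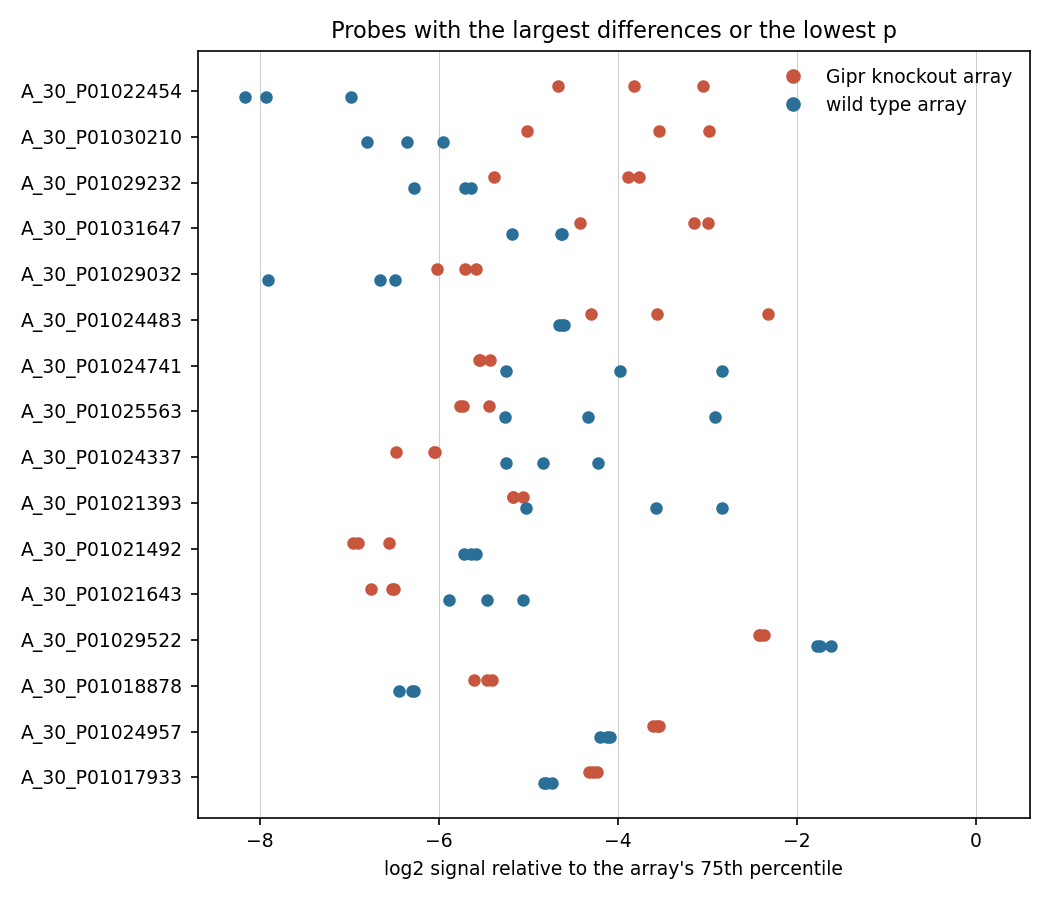
Log2 signal on each array for the 16 lincRNA probes with the largest separated differences or the lowest p. Points are arrays, coloured by genotype. At A_30_P01022454 the knockout arrays lie between -4.67 and -3.05 and the wild-type arrays between -8.17 and -6.99.

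Of the members above background on all 6 arrays, the 3 that varied most within a genotype did so through 1 array each. A_30_P01024438 (chr13:70745306-70837331) read -1.33 in wild-type replicate 1 and between -5.36 and -4.10 elsewhere. A_30_P01032210 (chr3:117399569-117474050) read -1.96 in knockout replicate 3 and -5.72 to -4.86 elsewhere. A_30_P01022854 (chr9:100977450-100989325) read -2.56 in wild-type replicate 1 and -5.65 to -4.84 elsewhere.

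Noncoding genes read by other probes of the array were read beside these. Of 51 such genes listed by name, 29 had a probe and 24 were tested. Of these, 0 were called higher and 0 lower by limma, and at an unadjusted p under 0.05 there was 1 higher, Kcnq1ot1, an imprinted antisense RNA, by 0.24 ± 0.08 (SE, adjusted p = 0.639). Only 1 probe was read per gene, and Kcnq1ot1 has 2 on the array outside the members. The 5 KCNQ1ot1 lincRNA probes had differences from -0.14 to 0.27. The median difference over the 24 was 0.04, against 0.01 over all tested probes.

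At the edges of the stretch left out, the nearest members on chromosome 7 were A_30_P01018981 at position 13541092, with signals of -1.96 to -1.71 and a difference of 0.02, and A_30_P01023538 at 35329503, which no array detected. Just inside lay A_30_P01032040 at 16586039, also undetected, and A_30_P01032211 at 31998385, with a difference of 0.19.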

How the data were processed

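Whole-testis RNA of 6 mice was read on 6 Agilent arrays, whose number limits the precision. Per the submitters' processing notes and the file headers, the authors scanned the arrays and extracted intensity values with Feature Extraction (version 10.7.3.1); its background-corrected processed signal was deposited and used. Flags for spots well above background, outliers and saturation (0 spots) came from the same deposited files, as did the mm9 positions. The authors' value table holds the processed intensity of 46873 probes rescaled array by array to a common median of 200 and served as an alternative.

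From these, log2 processed signal was taken, outlier spots (117 to 149 per array) were dropped, spots of a probe were averaged and each array's 75th percentile was subtracted. Of the members, 5 lacked a value on some array and 118 had no mm9 position. The genotypes were set against each other with lmFit and eBayes of limma (version 3.58.1, under R 4.3.3), with no covariate, over every probe that had all 3 arrays of a genotype above background, with two-sided p adjusted by Benjamini-Hochberg over all 38871. Differences are knockout minus wild type. A bound ("at least") sets the brighter genotype's mean against, per dim array, the higher of the probe's own value and the lowest value above background. It is a bound on the measured means, leaves out their sampling error and depends on the background correction. Per the labels, 3 mice of each genotype were used. Shares and exact permutation tests were computed in Python 3.11.15 with scipy 1.17.1. The fit was tested on simulated data.

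Named members were, by rule: called ones, up to 6 per direction with the largest difference among non-overlapping ones with an unadjusted p under 0.05, the 6 brightest, 4 strand pairs with 1 and 4 with both strands detected, 4 intervals with most detected probes, and 3 with the largest spread within genotype. The members, lists and rules were chosen with earlier results of these data known. Names were matched to RefSeq (GRCm38.p6), for names only. Alternatives covered background correction, scaling, filters, weights, a replicate block, GC content, detection marks and leaving out each array. Same-numbered samples did not deviate together (correlations 0.06, -0.02 and -0.00), so the numbers were not treated as pairs.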

Additional observations from a re-analysis of the deposited data

How the results depend on the processing

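The 0 lincRNA calls between genotypes became 1 with normexp correction, 2 with a trended robust eBayes and 4 with array weights, each of 8459. Over all 38871 tested probes these settings called 30, 35 and 29. With 1 probe per interval and strand 1 of 3509 members was called, and 19 of all 26961 probes. Leaving out 1 array gave 0 to 6 lincRNA calls. The 6 came without wild-type replicate 1, from 8693 members, where 26 of all 39404 tested probes were called. Of the 14 members called under any setting, 10 met the filter only because 1 array was left out. In a fit with the replicate number as a block the lincRNA count was 1, and 6 over all tested probes, although the numbers do not pair the samples. Scaling, filter, the authors' table, the chromosome 7 stretch put back and Benjamini-Yekutieli adjustment left the lincRNA count at 0. The 772 members at an unadjusted p under 0.05 became 1722 with array weights, 284 with 1 probe per interval and strand (fewer probes tested), and 582 to 1215 with 1 array left out; the highest was without wild-type replicate 3. Without the filter on dim probes the median difference was -0.017, against 0.02. The cause of these shifts was not tested.

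The gap in detection between coding and lincRNA probes was 27.4 to 28.6 points with 1 array left out, where 5 arrays cannot give an exact p below 0.0625. The looser detection mark gave 77.1% and 91.1%, and 40% to 55% GC gave 86.0% for coding probes. The X minus autosome difference was -8.76 to -8.24 points with 1 array left out and -7.38 when all 6 arrays were required. The same-strand excess within 1 kb was 31.3 to 33.3 points with 1 array left out. Requiring every probe of a strand gave 74 intervals with both strands. The settings for every probe of a strand, all 6 arrays on X, GC content on X and all those near coding probes were chosen after seeing the data. Dim signal limits the rest: 5518 members were not above background on any array.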

Other observations

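Some members varied so much within a genotype that they did not enter the comparison, and are named here after their values were seen. They met the filter only when their dim array was left out, so the limma calls they then gave are no support for a difference between genotypes. A_30_P01019290 (chr9:7214754-7225700, reverse) read -2.48 and -2.87 in wild-type replicates 2 and 3, -7.99 in wild-type replicate 1, and -8.56, -8.23 and -8.18 in knockout. A_30_P01033015 (chr1:108657255-108667405, forward) read -3.49 and -3.48 in the same replicates, -7.98 in wild-type replicate 1 and -8.24 to -8.16 in knockout. A_30_P01023256 (chr4:124127144-124334840, forward) read -5.60 and -5.53 in knockout replicates 1 and 2, -8.19 in replicate 3 and -8.30 to -8.04 in wild type.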
